A study of Homo sapiens with 4 samples.

Results

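Class 3 semaphorins and neuropilins are 9 human genes: the 7 secreted ligands SEMA3A, SEMA3B, SEMA3C, SEMA3D, SEMA3E, SEMA3F and SEMA3G, and their 2 membrane receptors NRP1 and NRP2. They were taken by gene symbol from a table of 22465 genes, and each of the 9 had a single transcript cluster, the array's unit for a gene. The set was chosen by the lower log2 signals of SEMA3C and SEMA3A with an shRNA against LSD1+8a, together with the other genes of their class and its receptors, so the differences of the members in that comparison are given as a description, without p-values.

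The cells were SH-SY5Y, an established human neuroblastoma line of adrenergic, neuron-like character. All cells were first given 10 μM retinoic acid for 4 days, then 50 ng/mL BDNF for 3 days in medium without serum. The control group was infected with a control shRNA (2 arrays) and the other group with an shRNA against LSD1+8a (2 arrays), a neuronal isoform of LSD1, a histone demethylase encoded by KDM1A, that includes exon 8a. One shRNA per group is named in the labels, so an effect of that one hairpin cannot be told apart from an effect of LSD1+8a. Nothing in the labels says whether the replicates were separate cultures, and errors and p-values then cover only the spread between these arrays.

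Class 3 semaphorins are secreted proteins that steer growing axons and migrating neurons, often by repulsion. Most of them bind a neuropilin, which holds the ligand, while a plexin partner carries the signal into the cell and changes actin and adhesion. SEMA3A signals mainly through NRP1 and SEMA3F mainly through NRP2, SEMA3E can bind PLXND1 without a neuropilin, and neuropilins also bind members of the VEGF family. Furin-type proprotein convertases cut the ligands, which alters their activity.

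The values are log2 signals, in which 1 unit is a doubling. KDM1A, whose cluster covers the gene as a whole and does not isolate exon 8a, read 9.10 and 9.25 in control cells against 8.76 and 8.78 with the LSD1+8a shRNA (difference -0.41 ± 0.09, limma SE; adjusted p = 0.0299, and 0.0586 after cyclic loess, a normalization that evens out differences between arrays along the range of levels). The 2 arrays of a group differed per gene by an SD of 0.177 for control and 0.171 for LSD1+8a shRNA. The median difference over all genes was 0.08. It was 0.13 for genes of mean level 3 to 4, 0.19 for 4 to 5, 0.21 for 5 to 6, 0.07 for 6 to 7, -0.05 for 7 to 8 and -0.09 for 8 to 10. A small positive difference of a dim gene can thus equal the median of genes at its level. Background features of GC counts 13 to 18, a rough guide because the GC content of the gene probes was not used here, had medians of 4.50 and 4.43 in control cells against 4.71 and 4.72 with the LSD1+8a shRNA. The highest of these features read between 5.88 and 6.13. Of the adrenergic markers, DBH, which makes noradrenaline, read 11.60 with the control and 11.54 with the LSD1+8a shRNA, and the growth-associated gene STMN2 11.61 and 11.71, far above the background medians. STMN2 had no call as deposited (limma adjusted p = 0.347) and was called higher after cyclic loess (difference 0.31; adjusted p = 0.0476).

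Among the ligands, SEMA3C, a semaphorin that acts through both neuropilins, lay far above the background medians and differed most between the groups. SEMA3C (cluster TC07001559.hg.1) read 9.69 and 9.64 in control cells against 8.28 and 8.15 with the LSD1+8a shRNA. The pairs of arrays lay close together and the groups did not overlap, as for 74.4% of all genes. The difference was -1.45 ± 0.09 (limma SE; 95% interval -1.66 to -1.24), which is 2.74-fold lower, and 20 of the 22465 genes had a lower difference. It was -1.34 after cyclic loess and between -1.52 and -1.39 with any 1 array left out. In bulk RNA, fewer cells that make a transcript and less of it per cell cannot be told apart.

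SEMA3A, the founding collapsin that repels axons through NRP1 and A-type plexins, was the other ligand with a lower signal. SEMA3A (TC07001568.hg.1) read 7.25 and 8.03 in control cells against 6.54 and 6.58 with the LSD1+8a shRNA. The LSD1+8a pair was tight and the control pair was not (SD 0.55 against 0.028, n = 2 each), though both control arrays stood above both LSD1+8a arrays. The difference was -1.08 ± 0.22 (SE; 95% interval -1.59 to -0.58), a 2.12-fold lower signal, and 96 genes had a lower difference. Control replicate 2 carried much of this size: the difference was -0.70 without it and -1.47 without control replicate 1. It was -1.09 after cyclic loess.

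The SEMA3C promoter is shown because the larger difference belongs to a gene with 2 annotated starts, which the array value does not separate. RefSeq windows of 300 bases (250 before the start and 50 after, build GRCh38.p14) matched 7 of the 9 members, all but SEMA3A and NRP1. Printed 5′ to 3′ along the gene, with CpG dinucleotides in capitals, are the SEMA3C windows at chr7:80919002-80919301 and chr7:80922340-80922639, and for comparison those of SEMA3D at chr7:85187007-85187306 and SEMA3E at chr7:83649090-83649389, all on the minus strand.
SEMA3C, inner start: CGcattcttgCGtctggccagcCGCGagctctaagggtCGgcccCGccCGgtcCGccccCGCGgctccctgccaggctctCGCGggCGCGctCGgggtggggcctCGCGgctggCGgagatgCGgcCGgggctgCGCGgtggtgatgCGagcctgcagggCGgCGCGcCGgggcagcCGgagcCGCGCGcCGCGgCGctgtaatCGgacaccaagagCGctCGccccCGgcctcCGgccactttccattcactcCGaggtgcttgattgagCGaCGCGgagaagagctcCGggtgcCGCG
SEMA3C, outer start: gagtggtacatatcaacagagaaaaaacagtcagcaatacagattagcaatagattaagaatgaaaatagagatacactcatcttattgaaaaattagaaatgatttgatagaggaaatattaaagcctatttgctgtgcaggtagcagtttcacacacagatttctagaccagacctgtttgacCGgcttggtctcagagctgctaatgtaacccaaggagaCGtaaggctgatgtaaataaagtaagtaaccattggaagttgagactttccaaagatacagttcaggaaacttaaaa
SEMA3D: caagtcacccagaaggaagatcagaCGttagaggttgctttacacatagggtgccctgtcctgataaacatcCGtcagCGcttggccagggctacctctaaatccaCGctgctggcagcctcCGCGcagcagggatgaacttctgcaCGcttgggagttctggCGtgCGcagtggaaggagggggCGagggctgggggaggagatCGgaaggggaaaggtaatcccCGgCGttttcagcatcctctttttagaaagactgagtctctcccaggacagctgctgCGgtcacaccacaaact
SEMA3E, outer start: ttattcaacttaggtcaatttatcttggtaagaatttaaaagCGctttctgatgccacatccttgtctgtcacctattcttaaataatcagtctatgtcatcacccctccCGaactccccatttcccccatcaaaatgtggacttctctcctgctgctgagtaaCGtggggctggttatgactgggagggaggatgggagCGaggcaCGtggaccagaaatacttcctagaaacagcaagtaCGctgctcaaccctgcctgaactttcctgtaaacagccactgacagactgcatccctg

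The inner SEMA3C window held 46 CpGs and 75.7% G and C, and 97.1% of 35114 RefSeq windows of the same length had fewer CpGs. The outer SEMA3C window held 2 CpGs and 36.0% G and C, and 11.0% of windows had fewer. SEMA3C thus has a CpG-dense and a CpG-poor annotated start. The SEMA3D window (14 CpGs, the median of all windows) lies between them, and the outer SEMA3E window held 6. SEMA3F, whose windows are not printed, has both kinds too, with 44, 47 and 2 CpGs. The SEMA3B windows held 9 to 32 CpGs, the NRP2 window 33 and the SEMA3G window 8. The letters of 5 motifs were searched on both strands. GGGCGG, the GC box, occurred 3 times in the inner SEMA3C window and in 45.0% of all windows, and CCAAT once in the outer one and in 34.6% of all. AGGTCA, the half-site of retinoid and other nuclear receptors, occurred in 13.8% of all windows, once in the outer SEMA3E window and in neither SEMA3C window. CACGTG, an E-box, was also found once in the outer SEMA3E window (7.26% of all windows), and TATAAA (11.5%) in none of the 4 printed. SEMA3E has a second, inner window that is not printed, which held 1 CpG, fewer than either SEMA3C window, and 1 TATAAA. No matches overlapped each other in these 4 windows, and a match of letters is a description of the sequence only.

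The other ligands with a signal above the background medians, SEMA3B, SEMA3F and SEMA3G, were slightly higher with the LSD1+8a shRNA. SEMA3B, SEMA3F and SEMA3G share the short arm of chromosome 3, and SEMA3B and SEMA3F are known as tumour suppressors there. SEMA3B (TC03000309.hg.1) read 6.58 and 6.43 in control cells against 6.69 and 6.71 with the LSD1+8a shRNA, a difference of 0.19 ± 0.09 (SE; 95% interval -0.02 to 0.40). SEMA3F (TC03000303.hg.1) read 6.37 and 6.32 against 6.55 and 6.60, a difference of 0.23 ± 0.08 (95% interval 0.03 to 0.43). SEMA3G, a ligand of NRP2 (TC03001454.hg.1), read 6.22 and 6.08 against 6.56 and 6.47, a difference of 0.36 ± 0.09 (95% interval 0.15 to 0.58). In all 3 the groups did not overlap, as for 74.4% of all genes, and the differences were at most 1.29-fold. After cyclic loess they were 0.14, 0.16 and 0.28, and with array medians centred 0.07, 0.11 and 0.24. The SEMA3B difference was 0.12 without control replicate 2 and 0.27 without control replicate 1.

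SEMA3D and SEMA3E read below the background medians on every array, so their differences describe dim probes. SEMA3D, which guides axons and endothelial cells (TC07001570.hg.1), read 3.91 and 3.79 in control cells against 3.79 and 4.32 with the LSD1+8a shRNA, with overlapping groups (difference 0.20 ± 0.16, SE; 95% interval -0.18 to 0.58). Its sign rests on LSD1+8a replicate 2, without which the difference was -0.06. SEMA3E, the PLXND1 ligand (TC07001566.hg.1), read 3.22 and 3.16 against 3.30 and 3.32. Its difference was 0.12 ± 0.08 (95% interval -0.08 to 0.31), and -0.0037 with array medians centred. Genes of mean level 3 to 4 had a median difference of 0.13.

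The neuropilins read just above the background medians and below the highest background features. NRP1, the receptor that binds SEMA3A (TC10001166.hg.1), read 5.28 and 5.11 in control cells against 4.91 and 5.13 with the LSD1+8a shRNA. The groups overlapped, and the difference was -0.18 ± 0.11 (SE; 95% interval -0.43 to 0.08), or -0.34 after cyclic loess. It was -0.06 without LSD1+8a replicate 1, -0.29 without LSD1+8a replicate 2, -0.09 without control replicate 1 and -0.26 without control replicate 2. NRP2, the receptor of SEMA3F and SEMA3G (TC02001206.hg.1), read 4.99 and 4.78 against 5.40 and 5.04. Here the groups did not overlap, and the difference of 0.33 ± 0.13 (95% interval 0.01 to 0.65) was 0.15 without LSD1+8a replicate 1, 0.51 without LSD1+8a replicate 2 and 0.16 after cyclic loess.

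**Figure D1:**
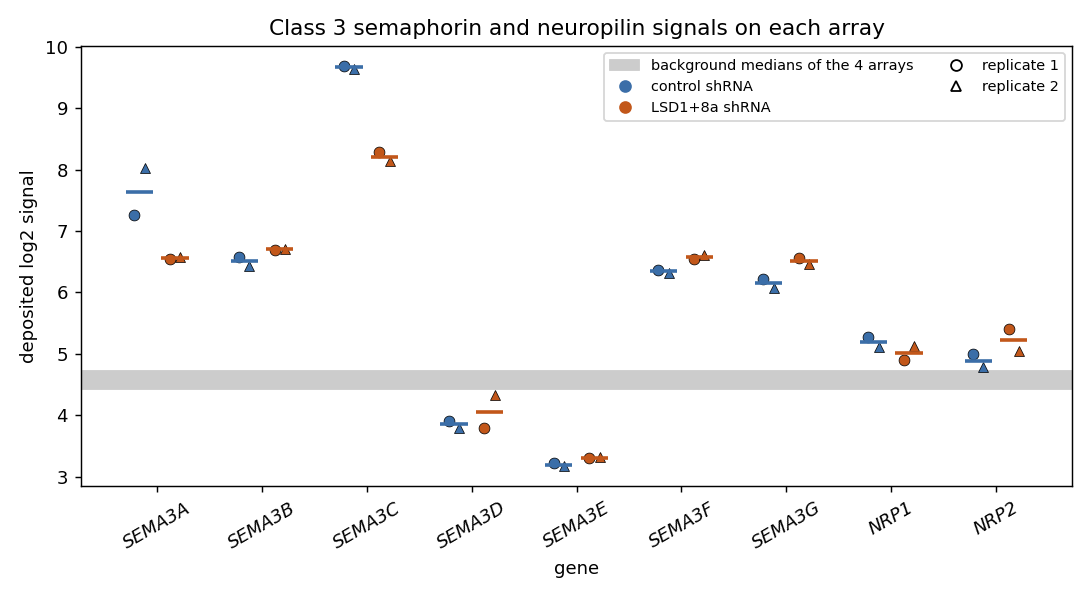
Deposited log2 signal (y axis) of the 9 genes (x axis) on each of the 4 arrays, with group means as lines and the range of the arrays' background medians as a grey band. SEMA3C and SEMA3A read lower on both LSD1+8a shRNA arrays, SEMA3D and SEMA3E lie under the band, and NRP1 and NRP2 lie just above it.

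Over the 9 genes, 6 differences were above 0 and 3 below, with a median of 0.19 against 0.08 for all genes, and of 0.07 against 0.02 after cyclic loess. The 7 genes other than SEMA3A and SEMA3C had differences from -0.18 to 0.36, with a median of 0.20. Of these 7, 6 differed upwards, as did most genes. Only 39.5% of all genes had a difference under 0.0039, the value of the transducer gene CDK5R1. SEMA3D and SEMA3E, which read below the background medians, are among the 6. In the limma fit over all genes at an adjusted p of 0.05, 2 members were called lower (SEMA3A and SEMA3C; 11.2% of all genes were called lower) and 1 higher (SEMA3G; 12.1% of all genes), and 6 were not called, where 23.3% of all genes were called in either direction. The groups did not overlap for 7 of the 9, against 74.4% of all genes. Because this comparison served to choose the set, nothing is read from these counts. After cyclic loess SEMA3A and SEMA3C kept their call (8.50% of all genes were called lower) and SEMA3G did not (3.12% were called higher). With array medians centred the calls were also 2 lower and 0 higher (15.5% and 1.71% of all genes). At an unadjusted limma p under 0.05, 3 members were lower and 1 higher after cyclic loess, against 4555 and 3655 of the 22465 genes. With array medians centred 3 members were lower and 1 higher at that threshold, against 6084 and 2109 of all genes. Nothing is read from these member counts either, because the same comparison chose the set. Without control replicate 1 and without control replicate 2, limma called 0 of the 22465 genes (9835 and 5339 at an unadjusted p under 0.05).

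**Figure D2:**
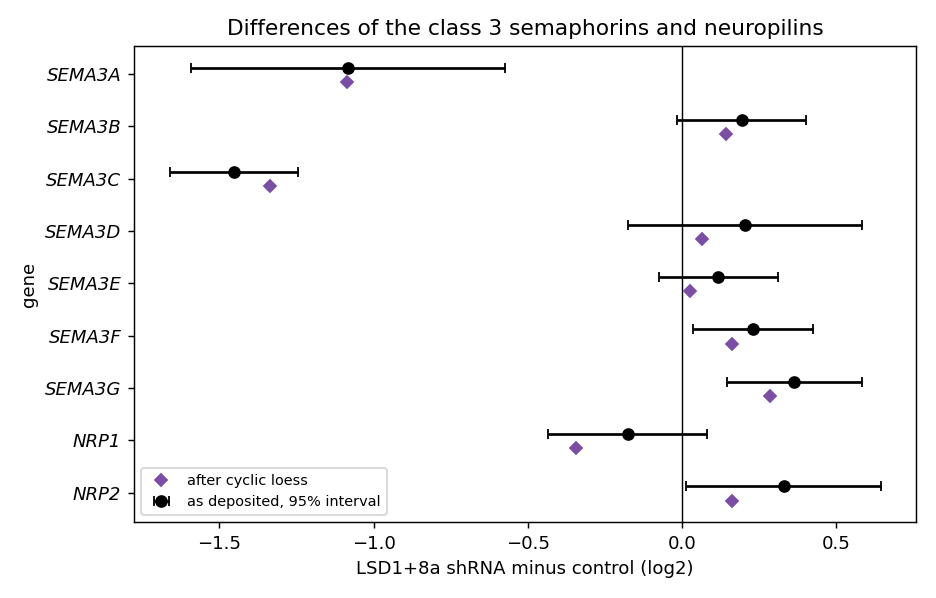
Difference in log2 signal between LSD1+8a shRNA and control cells (x axis) for each gene (y axis), with limma's 95% interval for the deposited values (black) and the difference after cyclic loess (purple diamonds). SEMA3C at -1.45 and SEMA3A at -1.08 lie apart from the other 7, which run from -0.18 to 0.36.

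SEMA3C, SEMA3E, SEMA3A and SEMA3D lie in 1 stretch of chromosome 7, and the 8 measured protein-coding genes inside it or next to it were looked at in gene order (RefSeq GRCh38.p14, names and order only). None of the 8 passed the limma test, and 1 of them, ELAPOR2, had an unadjusted p under 0.05, as did 10124 of all 22465 genes. Between SEMA3C and SEMA3E lie HGF, the ligand of the MET receptor, CACNA2D1, a calcium channel subunit, and PCLO, a presynaptic scaffold. CACNA2D1 differed by 0.05 ± 0.11 (SE; 95% interval -0.20 to 0.29) and PCLO by 0.17 ± 0.12 (-0.11 to 0.44). The PCLO difference was 0.0037 without control replicate 1 and 0.33 without control replicate 2.

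HGF read 6.14 and 5.90 in control cells against 5.09 and 6.05 with the LSD1+8a shRNA. Only LSD1+8a replicate 1 was low (difference -0.45 ± 0.27, adjusted p = 0.228). Without that array the difference was 0.03, and without LSD1+8a replicate 2 it was -0.93 (limma adjusted p = 0.00261). On the far side of SEMA3C, GNAI1, a G protein subunit, differed by -0.18 ± 0.09, while GNAT3, the taste G protein gustducin, and CD36, a fatty acid receptor, read below the background medians on every array. On the far side of SEMA3D, GRM3, a glutamate receptor, averaged 4.23 with the control and 4.41 with the LSD1+8a shRNA, also below the background medians on every array, and ELAPOR2 differed by -0.37 ± 0.11 (adjusted p = 0.0526). ELAPOR2 missed the threshold narrowly and was called without LSD1+8a replicate 2 (adjusted p = 0.0231), with array medians centred (adjusted p = 0.0350), with the replicate block (0.0162), with trended or robust moderation (0.0477 and 0.0493) and when dim genes were left out (0.0469), though not after cyclic loess (0.114) or quantile normalization (0.126). Without LSD1+8a replicate 1 the ELAPOR2 difference was -0.22 (adjusted p = 0.244), and neither fit without a control array called it (0.137 and 0.254).

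**Figure D3:**
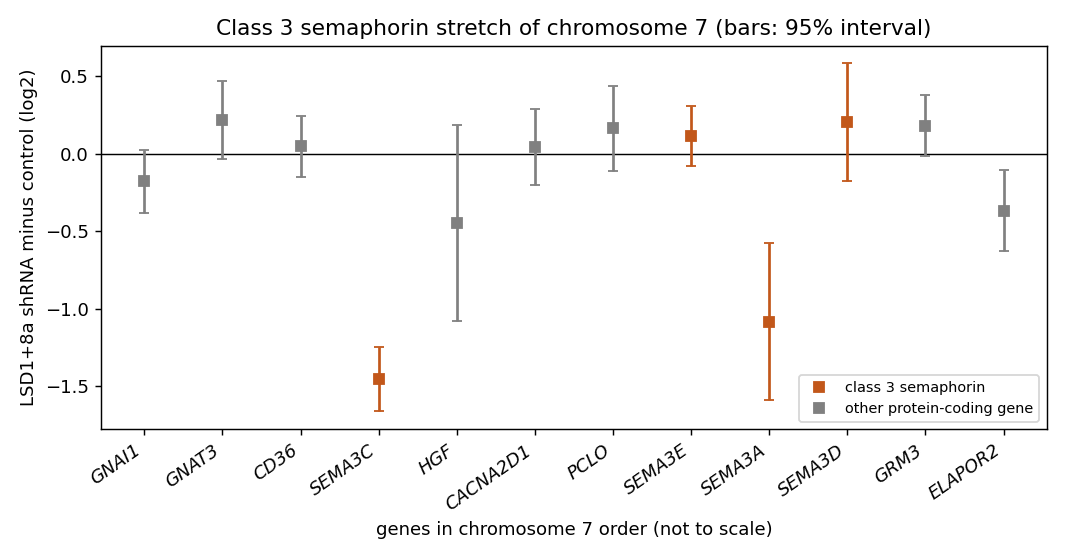
Difference in log2 signal between LSD1+8a shRNA and control cells (y axis, bars are 95% intervals) for the measured genes in their order on chromosome 7 (x axis, not to scale). SEMA3C and SEMA3A, with non-semaphorin genes and SEMA3E between them, are the genes with intervals wholly under -0.5.

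The partner genes of the pathway were taken from 7 lists, of which 59 of 66 genes were measured under 1 symbol. Of these 59, 14 rose, 1 fell and 44 did not pass (limma, adjusted over all genes), where 12.1% of all genes rose and 11.2% fell. The split depended on scaling: it was 9 higher and 1 lower after cyclic loess, and 4 and 3 with array medians centred, where 1.71% and 15.5% of all genes were called. The 4 were PLXNA2, PLXNA3, PLXNA4 and LIMK1, and the 3 were PLXNC1, SEMA5A and DPYSL3.

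Plexins are the signalling receptors of the complex. Of 9 plexin genes, 5 rose and 1 fell, with a median difference of 0.33, where 12.1% of all genes rose and 11.2% fell. After cyclic loess 4 rose and 1 fell (3.12% and 8.50% of all genes). PLXNA2 read 7.28 and 7.29 in control cells against 8.18 and 8.07 with the LSD1+8a shRNA, a rise of 0.84 ± 0.09 (SE; limma adjusted p = 0.00651). PLXNA4, the plexin that SEMA3A uses in sensory and sympathetic neurons, read 7.23 and 6.90 against 7.69 and 7.81 (0.68 ± 0.12; adjusted p = 0.0206). PLXNA3, a plexin of SEMA3F signalling, read 7.82 and 7.85 against 8.45 and 8.29 (0.54 ± 0.09; adjusted p = 0.0184). For these 3 partners of the neuropilins, both LSD1+8a arrays stood above both control arrays. The groups did not overlap for 74.4% of all genes. The difference of PLXNA1, the remaining A-type plexin, was 0.13 ± 0.10 and did not pass.

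Among the other plexins, PLXND1, which SEMA3E binds, rose by 0.33 ± 0.09 (adjusted p = 0.0390) but had no call after cyclic loess (0.0853). PLXNB3, a receptor of SEMA5A, rose by 0.37 ± 0.09 (adjusted p = 0.0336). PLXNC1, the receptor of SEMA7A, fell from 5.70 and 5.71 to 5.17 and 5.21 (-0.51 ± 0.08; adjusted p = 0.0170) and was the 1 gene of the 7 lists that fell. PLXNC1 and the neuropilins all lie below the highest background features.

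Adhesion molecules that join the receptor complex rose in part. L1CAM, which pairs with NRP1 for SEMA3A, rose from 9.12 and 9.27 to 9.82 and 9.51 (0.47 ± 0.12; limma adjusted p = 0.0378), and NRCAM, which pairs with NRP2 for SEMA3B and SEMA3F, from 8.77 and 9.18 to 9.48 and 9.61 (0.57 ± 0.14; adjusted p = 0.0348). NRCAM differed by 0.36 without control replicate 1. Both kept their call after cyclic loess and lost it with array medians centred (adjusted p = 0.132 and 0.0985). CHL1 (0.12 ± 0.08) and CNTN2 (0.17 ± 0.08), further adhesion proteins of the immunoglobulin family, did not pass, and 4 of the 5 fixed genes were measured. CHL1 read below the background medians on every array.

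Of 13 semaphorins of the other classes, which are membrane-bound, 1 rose, 0 fell and 12 did not pass, with a median of 0.11. At an unadjusted limma p under 0.05 the counts were 6 higher and 1 lower. At that threshold 6084 of all 22465 genes were higher and 4040 lower. SEMA4G, the 1 called, rose by 0.42 ± 0.12 (limma adjusted p = 0.0474) and had no call after cyclic loess (0.0788) or without LSD1+8a replicate 1 (difference 0.27; 0.184). SEMA5A, an axon guidance semaphorin chosen here after its value was seen, was the only one with a difference under -0.1, at -0.40 ± 0.13 (adjusted p = 0.0561).

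VEGF ligands and receptors, which share the neuropilins, gave 2 rises among 8 genes, where 12.1% of all genes rose. VEGFB (0.29 ± 0.09; limma adjusted p = 0.0480) and PGF (0.32 ± 0.09; adjusted p = 0.0443), which bind FLT1 and NRP1, rose, and VEGFC, VEGFD, FLT1 and KDR read below the background medians on every array. Of 4 measured proprotein convertases PCSK4 rose (0.31 ± 0.08; adjusted p = 0.0392), and FURIN, which cuts class 3 semaphorins, differed by 0.28 ± 0.09 (adjusted p = 0.0574). VEGFB and PCSK4 kept their call after cyclic loess, and PGF did not (adjusted p = 0.0586). With array medians centred, limma called neither VEGFB nor PCSK4 (adjusted p = 0.205 and 0.136).

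Inside the cell, none of the 5 CRMP genes, which relay SEMA3A signals to microtubules, passed the limma test. At an unadjusted p under 0.05, 1 was lower and 0 higher, against 4040 and 6084 of all 22465 genes. DPYSL3 differed by -0.23 ± 0.08 (adjusted p = 0.0728) and CRMP1 by 0.08 ± 0.09 (adjusted p = 0.543). With array medians centred DPYSL3 was called lower (difference -0.35; adjusted p = 0.0334), while its difference was -0.15 after quantile normalization (0.171) and -0.05 after cyclic loess (0.665). Of 16 measured kinases, GTPases and other transducers, 3 rose and 0 fell, where 12.1% of all genes rose and 11.2% fell. At an unadjusted p under 0.05, 4 of the 16 were higher and 0 lower. LIMK1, the kinase that inactivates cofilin, read 7.70 and 7.72 in control cells against 8.30 and 8.19 with the LSD1+8a shRNA (0.53 ± 0.09; adjusted p = 0.0172). FES, a tyrosine kinase of plexin signalling, rose by 0.34 ± 0.09 (adjusted p = 0.0401) and MICAL2, an actin-oxidising enzyme, by 0.32 ± 0.09 (adjusted p = 0.0434), and neither was called after cyclic loess (0.0728 and 0.169).

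**Figure D4:**
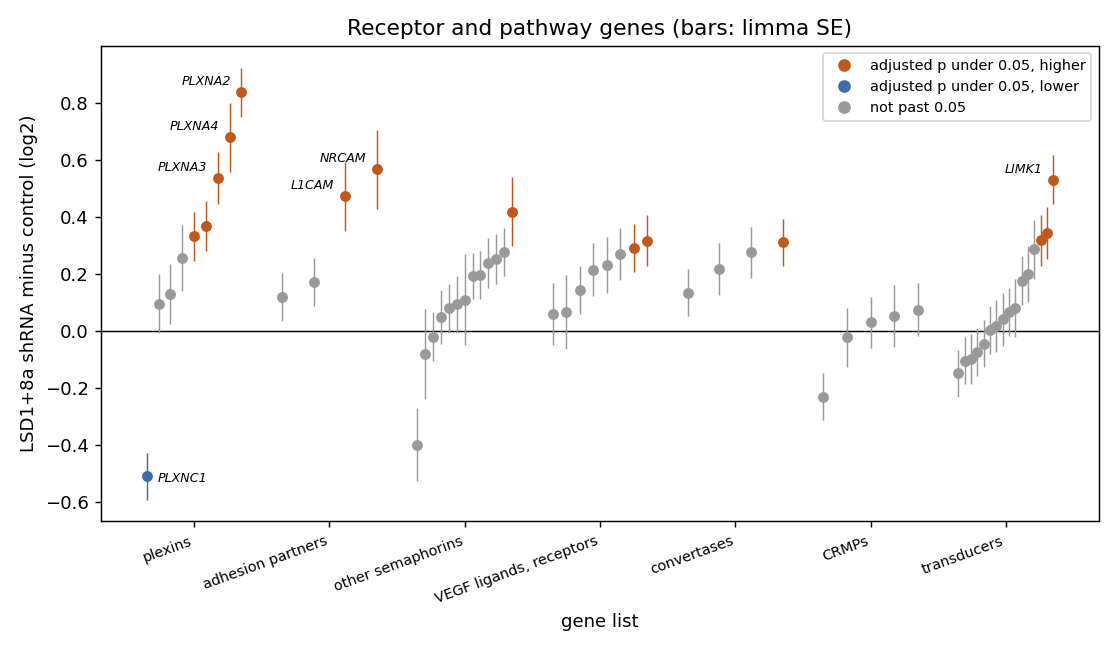
Difference in log2 signal between LSD1+8a shRNA and control cells (y axis, bars are limma SE) for the measured genes of the 7 pathway lists (x axis), coloured by the limma call at an adjusted p of 0.05. PLXNA2, PLXNA4, PLXNA3, NRCAM, L1CAM and LIMK1 are the named rises, and PLXNC1 is the fall.

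Genes whose values over the 4 arrays lay closest to a semaphorin were found by the Euclidean distance of mean-centred log2 values among 11232 genes brighter than the median gene, over 4 arrays only. For SEMA3C these were RMRP, the RNase MRP RNA (distance 0.11), the small nucleolar RNAs SNORD116-24 (0.11), SNORD116-23 (0.15) and SNORD116-2 (0.22), which are similar copies that may share probes, and SNORA50A (0.22). For SEMA3A they were TNFAIP6, a hyaluronan-binding protein (0.17), SNORA23 (0.23), the spindle gene ASPM (0.23), ATAD5, which unloads the replication clamp (0.26), and the mitotic kinase CDK1 (0.28). Like SEMA3A, all of these genes read higher in control replicate 2 than in control replicate 1, a likeness that the distance itself picks out. TNFAIP6, the nearest, read 6.57 and 7.37 in control cells against 6.07 and 5.95 with the LSD1+8a shRNA.

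Neuroblastoma lines can hold adrenergic and mesenchymal-like cells. Of 15 markers of the mesenchymal-like state, 2 rose and 3 fell, where 12.1% of all genes rose and 11.2% fell. After cyclic loess the counts were 0 and 2, where 3.12% and 8.50% of all genes were called. At an unadjusted limma p under 0.05 after cyclic loess they were 1 and 6, against 3655 and 4555 of all 22465 genes. The 15 had mean levels of 6.51 and 6.47 in control cells against 6.41 and 6.49 with the LSD1+8a shRNA, and the defining factor PRRX1 read below the background medians on every array. VIM, the intermediate filament vimentin, fell from 9.28 and 9.45 to 8.58 and 8.71 (-0.72 ± 0.10; limma adjusted p = 0.0121). NOTCH2 and TWIST1 also fell, by 0.37 and 0.33, and FOSL1 and CD44 rose by 0.32 and 0.30. After cyclic loess NOTCH2 kept its call, and TWIST1 (adjusted p = 0.0758), FOSL1 (0.103) and CD44 (difference 0.14; 0.205) did not. CD44 read 4.53 and 4.47 in control cells against 4.80 and 4.81 with the LSD1+8a shRNA, close to the background medians, which were themselves higher on the LSD1+8a arrays. Of 10 measured adrenergic markers, 2 rose and 1 fell, with mean levels of 9.23 and 9.36 in control cells against 9.50 and 9.31 with the LSD1+8a shRNA. After cyclic loess the counts were 2 and 0, and 5 and 1 at the unadjusted threshold. GATA3, a transcription factor of sympathetic neurons, rose by 0.47 ± 0.09 (limma adjusted p = 0.0222) and kept its call after cyclic loess (0.0221). TH, which makes the precursor of dopamine, rose by 0.35 ± 0.09 (adjusted p = 0.0411), and ISL1, a transcription factor of the same lineage, differed by -0.46 ± 0.09 (adjusted p = 0.0260). Neither had a call after cyclic loess (0.0702 and 0.0528). The part of these markers in the semaphorin differences was not tested.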

How the data were processed

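RNA from SH-SY5Y cells was measured on 4 arrays of the second Affymetrix human transcriptome design, 2 per group, from 250 ng of total RNA each. The authors deposited log2 signals, and the submitters' processing notes name RMA as the method. The software, the annotation behind it and the genome build are not stated in the labels. RMA gives no detection call, and the number of arrays limits the precision.

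Of 70523 features, 23781 transcript clusters carried 1 gene symbol in the platform table and yielded 22465 genes, each represented by its cluster of highest mean. The RefSeq table held 22167 of the symbols, and others were updated through gene ID or synonym where possible.

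LSD1+8a shRNA was compared with control shRNA with limma 3.58.1 in R 4.3.3 (lmFit, eBayes), without a replicate term, with Benjamini-Hochberg adjustment over all genes and a threshold of 0.05. Scripts were tested on simulated data. Members, lists and the rule for named genes were chosen with earlier results of these data known. The rule takes the 9 members, KDM1A, up to 6 called genes of each list (2 where none was called), the chromosome 7 neighbours and the 5 genes most like SEMA3C and SEMA3A each. Markers and SEMA5A are named beyond it. Alternatives left out each array, added the replicate number as a block, or changed the normalization (quantile, median centring or cyclic loess over all clusters), the moderation, the filter, the clusters or the threshold.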

Additional observations from a re-analysis of the deposited data

How the results depend on the processing

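Calls depend on few arrays and on the scaling between them. With 1 array left out, limma called 0 to 1 members higher (from 1), 0 to 2 lower (from 2), 0 to 6 pathway genes higher (from 14) and 0 to 1 lower (from 1), and the members' median difference was 0.11 to 0.26 (from 0.19). In these fits the lone array of a group is assumed to vary like the other group. All 4 counts were 0 without control replicate 1 (3 and 2 members, 20 and 1 pathway genes at an unadjusted p under 0.05) and without control replicate 2 (1 and 2, 16 and 2). Members called higher were 0 after quantile normalization, median centring and cyclic loess (2, 1 and 1 at an unadjusted p under 0.05), 2 with the replicate block, 3 at an adjusted p of 0.1 and 0 at 0.01. Of the 22465 genes, 4917, 2109 and 3655 were higher at that unadjusted threshold after these normalizations, in the same order. At 0.01, 1 member was lower. The members' median was 0.10, 0.072 and 0.066 after the 3 normalizations. Pathway genes called were 4 higher and 3 lower with medians centred, 9 higher after cyclic loess, 1 higher and 0 lower at 0.01, 3 lower at 0.1, 2 lower with the block, and 0 lower (2 unadjusted) when dim genes, PLXNC1 among them, were left out. That filter also removed 4 members, so it gives no median. Sign changes, none of them in a difference called as deposited, came with 1 array left out for SEMA3D (-0.060 to 0.47), HGF (-0.93 to 0.033), CRMP1 (-0.0012 to 0.15) and CACNA2D1 (-0.076 to 0.17), and with medians centred for SEMA3E (-0.0037), CRMP1 (-0.047), CD36 (-0.072) and CACNA2D1 (-0.077). Of 104 member differences under alternatives, 89 kept direction and call, as did 316 of 425 for other named genes. These counts include settings that cannot change a difference. The replicate block, the moderation and the filter leave its size as it was. Averaging clusters cannot alter the values of a member, because each member has a single cluster. The cause of these changes was not tested. Over genes, the difference between replicates 1 and 2 in control arrays correlated at 0.0232 with that in LSD1+8a arrays. The labels do not say whether equal replicate numbers pair the arrays, and this correlation cannot settle it. With the replicate block, 4425 of all genes were called higher and 3529 lower, against 2721 and 2524 without it.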
